A study of Arabidopsis thaliana with 36 samples.

Results

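The genes described here are the 68 loci, of 28775 counted, that stood lower in the triple mutant than in wild type in flowers, rosette buds, sink leaves and source leaves alike. A locus was taken when, in each of the 4 tissues, all 3 triple mutant libraries lay below all 3 wild-type libraries in CPM (the count divided by the library total, times 1e+06), the triple mutant mean was at most 0.75 times the wild-type mean, and the wild-type mean was at least 2 CPM. Of the 14959 loci with at least 2 CPM in wild type in every tissue, 0.455% met the rule. One further locus was set aside beforehand and is not analysed here. The study sequenced poly-A RNA of Arabidopsis thaliana, with Col-0 as wild type beside a triple mutant and a quintuple mutant of the S1 group of bZIP transcription factors. Source leaves export sugar, while sink leaves, flowers and rosette buds, the axillary buds that can grow into branches, import it. All plants grew untreated in long days of 16 h light and 8 h dark until flowering began, and each of the 12 groups of genotype and tissue has 3 libraries labelled as biological replicates. The labels name neither the mutated genes nor their alleles or lines, so no targeted gene was checked.

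S1 bZIP proteins are small leucine zipper transcription factors whose translation is repressed by sucrose, and they act with group C bZIP partners in the response to low energy. They bind DNA elements with an ACGT core, among them the G-box, and the ACTCAT element known from proline-responsive genes. Several of the 68 genes belong to families known from drought, abscisic acid and senescence: dehydrins shield membranes and proteins during water loss, aquaporins carry water across the plasma membrane and the vacuole membrane, and NAC and homeodomain-leucine zipper factors act in leaf ageing and in abscisic acid responses.

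Totals ran from 18158887 to 25124369 counts over the 36 libraries, and p values measure the spread between these libraries. The quintuple mutant libraries stood far apart from each other. The chi-square per gene between replicates was 21.9 to 175 in the quintuple mutant, 5.2 to 23.9 in wild type and 6.69 to 43.1 in the triple mutant, and in rosette buds the log2 levels of quintuple libraries 1 and 3 correlated at only 0.862. In flowers quintuple library 3 stood furthest, at 58.2 and 69.6 from libraries 1 and 2, against 21.9 between those. Counts of quintuple mutant calls are given with and without library 1, and each call on 1 of the 68 genes that was lost without library 1 is named. Unless a left-out library is named, a call is one made with all libraries. Leaving out library 1 raised the share of all genes called higher in rosette buds from 1.7% to 26.2%, and only some calls gained that way are named. Of 91 calls on named genes 6 were lost that way, 28 and 13 without quintuple libraries 2 and 3, and 45 to 47 without a wild-type library. Summed flower markers reached 184 to 186 CPM in wild-type flowers and at most 11.4 in the other wild-type tissues, and summed bud markers 24.5 to 31.3 CPM in wild-type rosette buds and at most 4.65 elsewhere. In each tissue both mutants are compared with the same wild-type libraries, and in bulk tissue fewer cells of a type and less RNA per cell cannot be told apart.

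Because S1 bZIP proteins bind short known elements, the 250 bases before each gene's annotated start were read from the TAIR10.1 genome and its RefSeq annotation, matched by locus for all 68 genes. The upstream sequences of 3 genes are shown, 2 with a G-box and 1 without. NAP and SP1L4 hold the G-box and moved in opposite directions in quintuple mutant flowers, while GAMMA-TIP was called lower in all 4 quintuple mutant tissues. Capitals mark the G-box CACGTG, the C-box GACGTC and the A-box TACGTA, which all contain the core ACGT, the bare core itself, and the proline element ACTCAT, which was searched on both strands while the others read the same on both. All 3 genes lie on the plus strand, NAP with this window at chr1:26121830-26122079, SP1L4 at chr5:5077950-5078199 and GAMMA-TIP at chr2:15445044-15445293 of the build above.
NAP: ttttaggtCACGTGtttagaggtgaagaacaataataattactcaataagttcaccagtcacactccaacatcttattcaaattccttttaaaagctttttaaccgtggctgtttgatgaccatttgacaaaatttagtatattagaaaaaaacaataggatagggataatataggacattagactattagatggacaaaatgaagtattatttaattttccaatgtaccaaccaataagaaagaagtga
SP1L4: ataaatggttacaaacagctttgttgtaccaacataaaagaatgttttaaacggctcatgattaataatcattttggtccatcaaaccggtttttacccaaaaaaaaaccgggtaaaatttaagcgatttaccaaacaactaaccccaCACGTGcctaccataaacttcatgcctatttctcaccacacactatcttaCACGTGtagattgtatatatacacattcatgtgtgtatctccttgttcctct
GAMMA-TIP: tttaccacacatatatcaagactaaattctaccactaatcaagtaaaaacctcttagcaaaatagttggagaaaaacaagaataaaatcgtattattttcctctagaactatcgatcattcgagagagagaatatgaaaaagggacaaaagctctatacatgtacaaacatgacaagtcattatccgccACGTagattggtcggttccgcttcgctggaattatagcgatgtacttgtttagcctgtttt

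CACGTG stood upstream of 7 of the 68 genes (10.3%) and of 7.42% of the 14643 promoters of loci with at least 2 CPM in every wild-type tissue. The ACGT core, which the first 3 elements contain, stood in 40 of the 68 (58.8%) against 43.8%. ACTCAT stood in 3 (4.41%) against 11.6%, TACGTA in 3 (4.41%) against 4.49%, and GACGTC in 1 (1.47%) against 2.52%. CACGTG was found in 1 of the 25 genes called lower in at least 1 quintuple mutant tissue and higher in none, and in 1 of the 14 with the opposite calls. A match describes letters in this window and says nothing about binding.

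In the triple mutant the median reduction was deepest in sink leaves. The median ratio of triple mutant to wild-type mean CPM was 0.620 in flowers, 0.618 in rosette buds, and 0.480 in sink and 0.563 in source leaves. These ratios chose the genes and are a description. The rule was met by 11.1% of loci with at least 2 CPM in wild-type flowers, 6.67% in rosette buds, and 10.4% in sink and 9% in source leaves. Sink leaves held the lowest ratio of 36 genes, source leaves of 15, rosette buds of 11 and flowers of 6. A ratio of at most 0.5 in every tissue was reached by 4 genes: AT1G34060, HIPP25, AIRP2 and AT5G25240. The column-total scale put the median locus at a triple mutant to wild-type log2 ratio of 0.10 in flowers, 0.06 in rosette buds, and 0.10 in sink and 0.01 in source leaves. Just inside the limit of 0.75 were the kinase-family gene AP4.3A with a largest ratio of 0.749, AT5G58570 with 0.749 and the RING protein gene AT1G74410 with 0.7498, and just outside were AT4G33040, ELF5A-3 and SPD1, each with 0.758.

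**Figure D1:**
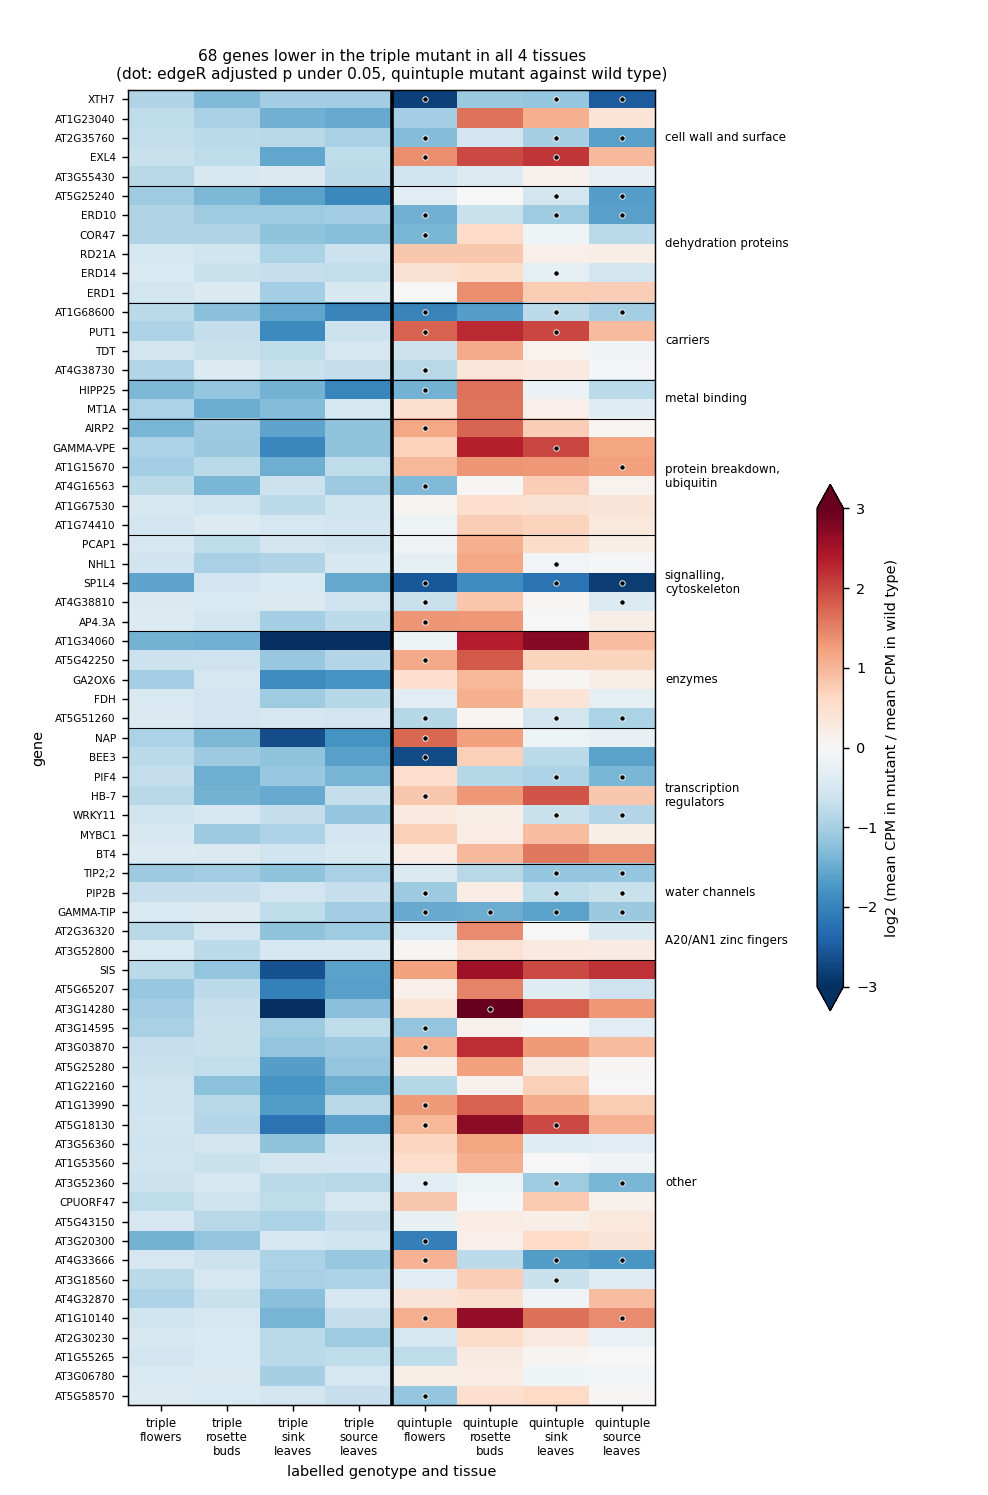
Log2 ratio of mean CPM, mutant over wild type, for the 68 genes (rows, grouped by function) in the triple mutant (left 4 columns) and the quintuple mutant (right 4 columns), with colours capped at 3 in either direction; dots mark quintuple mutant differences with an edgeR adjusted p under 0.05. The left side is blue throughout, as the rule requires, while the right side holds both directions, with red most frequent in rosette buds.

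In the quintuple mutant the 68 genes were called in both directions. By edgeR's quasi-likelihood test with Benjamini-Hochberg adjustment over all genes, at 0.05, 18 of the 68 genes were lower and 12 higher in quintuple mutant flowers (26.47% and 17.65%), beside 18.8% and 19.7% of all genes tested. In sink leaves 17 were lower and 4 higher (25% and 5.88%), beside 12.9% and 11.9%. In source leaves 15 were lower and 2 higher (22.1% and 2.94%), beside 8.85% and 9.19%. In rosette buds 1 was lower and 1 higher (1.47% each), beside 0.568% and 1.7%. Median log2 folds of the 68 genes were -0.12 in flowers, 0.62 in rosette buds, and -0.26 in sink and -0.24 in source leaves, and those of all genes tested were 0.01, 0.02, 0.03 and 0.02. The comparison uses the wild-type libraries that also chose the genes, so counts of lower calls are not independent of the rule. Folds below are edgeR log2 folds ± SE, with n = 3 libraries a group, and levels are CPM in libraries 1, 2 and 3 in that order.

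Over the 4 tissues, 25 genes were called lower at least once and never higher, 14 higher at least once and never lower, 1 in both directions, and 28 in neither. The share of all genes with such calls over the 4 tissues was not computed. These counts, and those of the function classes below, therefore cannot be set against a background. GAMMA-TIP was the single gene lower in all 4 tissues, beside 0.142% of genes tested in all 4. Lower in 3 tissues were the aquaporin gene PIP2B, the dehydrin gene ERD10, the wall enzyme gene XTH7, the cytoskeletal gene SP1L4, the carrier gene AT1G68600, AT2G35760, AT3G52360 and the acid phosphatase family gene AT5G51260. Without quintuple library 1 the calls were 16 lower and 13 higher in flowers (23.5% and 19.1%), beside 17.55% and 16.1% of all genes tested. In rosette buds they were 9 and 42 (13.2% and 61.8%), beside 26.2% in each direction. In sink leaves 20 were lower and 9 higher (29.4% and 13.2%), beside 13.8% and 13.6%. In source leaves 17 were lower and 13 higher (25% and 19.1%), beside 20.5% and 20.3%, so both shares lay near the background there. The bud counts were 8 and 24 by DESeq2, beside 7.09% and 11.03% of all genes, and 9 and 28 at an unadjusted p under 0.05, beside 12.1% and 17.5%. Higher calls in flowers were 22 (32.4%) without quintuple library 3, beside 25.31% of all genes tested. They were 7 (10.3%) without wild-type library 1 or 3, beside 11.496% and 12.44%, so the count moved with the background. Sink leaf calls were 11 lower (16.2%) without wild-type library 2 or 3, beside 5.86% and 5.97%. Between 0 and 2 were higher (0% to 2.94%) without any one wild-type library or quintuple library 3, beside 3.48% to 7.86%. Source leaf calls were 4, 0 and 1 lower (5.88%, 0% and 1.47%) without wild-type libraries 1, 2 and 3, beside 0.484%, 0.0984% and 0.156%. They were 6 lower (8.82%) without quintuple library 2, beside 1.11%. The higher calls there were 0 without any one wild-type library or quintuple library 2, beside 0.0518% to 1.51%. There was 1 (1.47%) without quintuple library 3, beside 6.90%. In rosette buds no gene of the set was called without quintuple library 2 or any one wild-type library. Of all genes tested 0% were then called in either direction, apart from 0.0048% higher without wild-type library 3. These settings therefore cannot set the genes apart from the background. Without quintuple library 3, 1 gene of the set was lower (1.47%) and 0 higher, beside 0.126% and 0.223% of all genes tested.

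**Figure D2:**
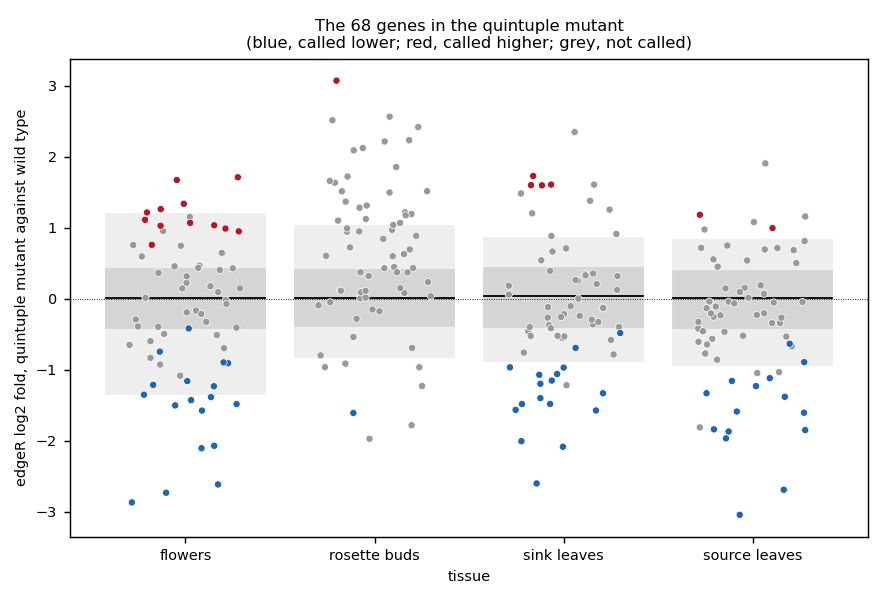
edgeR log2 folds of the 68 genes, quintuple mutant against wild type, by tissue, 1 point a gene; the grey boxes span the 10th to 90th (light) and 25th to 75th (dark) percentile of all genes tested and the line is their median. Called points lie on both sides of 0 in flowers and mostly below 0 in leaves, and most rosette bud points lie above 0 without being called.

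CPM ratios and edgeR folds of the quintuple mutant are on different scales. On column totals the median locus with at least 2 CPM stood at a quintuple to wild-type log2 ratio of 0.05 in flowers, 0.11 in rosette buds, and 0.42 in sink and 0.22 in source leaves, and after TMM scaling, which edgeR uses, at between -0.02 and 0.01. Some cell type markers moved with the quintuple mutant too. The summed level of 3 leaf mesophyll markers was 14986 to 18623 CPM in quintuple mutant sink leaves against 27715 to 28726 in wild type, 6795 to 16874 against 19017 to 22714 in source leaves, 1064 to 7168 against 8854 to 11732 in rosette buds, and 7856 to 12023 against 5161 to 5669 in flowers. Summed epidermis markers, 4 genes, were also lower in the quintuple mutant, at 319 to 1322 CPM against 1392 to 1959 in rosette buds, 296 to 372 against 400.1 to 576 in sink leaves and 182 to 302 against 370 to 460 in source leaves. In flowers they overlapped, at 1111 to 1610 against 1555 to 1600. Summed guard cell markers, 4 genes, were 37.6 to 61.2 CPM in the quintuple mutant against 34.0 to 37.2 in sink leaves. In flowers they were 27.3 to 30.9 against 36.5 to 44.3, and elsewhere they overlapped wild type. The quintuple mutant sum of 5 phloem companion cell markers overlapped wild type in all 4 tissues. The sum of 5 xylem markers in source leaves was 10.7 to 14.3 CPM in the quintuple mutant and 21.7 to 32.1 in the triple mutant against 35.5 to 41.7 in wild type, and in rosette buds 157 to 434 in the quintuple mutant against 104 to 146. No gene of these 3 lists was at 0. In the triple mutant the mesophyll sums overlapped wild type outside flowers, where they were 6726 to 7499 CPM against 5161 to 5669. Flower markers there were 222 to 239 against 184 to 186, and epidermis markers 1707 to 1733 against 1555 to 1600. Triple mutant bud markers in rosette buds were 12.2 to 20.8 against 24.5 to 31.3. Guard cell markers in sink leaves were 40.04 to 49.5 against 34.0 to 37.2. Companion cell markers in source leaves were 398 to 487 against 518 to 566. Most other triple mutant sums overlapped wild type. In quintuple mutant flowers the 2 bud markers summed to 19.3 to 44.3 CPM against 3.03 to 4.65 in wild type, and the 3 flower markers to 84.5 to 135 against 184 to 186. The part of these shifts in the results was not tested.

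In wild type most of the 68 genes had their highest mean in source leaves or flowers, and only source leaves stood far above the background. All 68 differed between the 4 wild-type tissues by edgeR, beside 87.5% of loci with at least 2 CPM in all 4. Source leaves held the highest mean CPM of 37 genes (54.4%, against 19.0% of those loci), flowers of 26 (38.2% against 29.8%), sink leaves of 3 (4.41% against 4.99%) and rosette buds of 2 (2.94% against 46.3%). Sink leaves were lower than source leaves for 34 genes, beside 11.1% of those loci, and higher for 3, beside 13.2%. Rosette buds were lower than source leaves for 59, beside 39.8%, and higher for 6, beside 31.1%. Flowers were lower than source leaves for 43, beside 41.3%, and higher for 15, beside 30.2%. The wild-type levels also entered the rule, through the minimum of 2 CPM and the ratio.

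**Figure D3:**
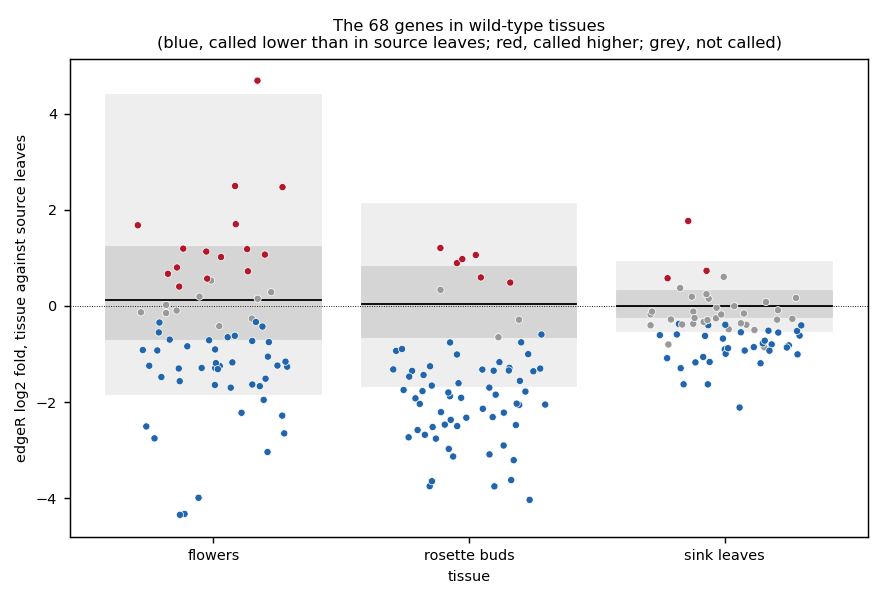
edgeR log2 folds of the 68 genes between wild-type tissues, each tissue against source leaves, 1 point a gene, with grey boxes for the 10th to 90th and 25th to 75th percentile of all genes tested and a line for their median. Most points lie below 0, with 59 called lower in rosette buds and 34 in sink leaves.

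All 3 water channel genes of the set were called lower in 2 or more quintuple mutant tissues, and none was called higher. Aquaporins GAMMA-TIP and TIP2;2 sit in the vacuole membrane and PIP2B in the plasma membrane. GAMMA-TIP in flowers had 1250.4, 1037 and 1022 CPM in wild type, 851, 719.9 and 839 in the triple mutant and 426, 268 and 476 in the quintuple mutant. In sink leaves it had 303, 288 and 327 CPM in wild type, 169, 178 and 196 in the triple mutant and 82.6, 118 and 101 in the quintuple mutant. The 3 genotypes did not overlap in either tissue, the quintuple mutant being lowest. The quintuple mutant log2 folds of GAMMA-TIP were -1.58 ± 0.23 (adjusted p = 0.0023) in flowers, -1.61 ± 0.25 (adjusted p = 0.043) in rosette buds, and -2.01 ± 0.18 (adjusted p = 0.0038) in sink and -1.33 ± 0.32 (adjusted p = 0.033) in source leaves.

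TIP2;2 was a leaf gene. It had 139, 134 and 135 CPM in wild type, 67.7, 48.0 and 60.5 in the triple mutant and 63.7, 47.8 and 71.0 in the quintuple mutant in sink leaves and 235, 266 and 214 CPM in wild type, 129, 106 and 129 in the triple mutant and 100.1, 114 and 108 in the quintuple mutant in source leaves, where both mutants lay below wild type and overlapped each other. In wild-type flowers it reached only 15.1, 14.9 and 21.5 CPM. Its quintuple mutant folds were -1.56 ± 0.17 (adjusted p = 0.0038) in sink leaves and -1.38 ± 0.17 (adjusted p = 0.01) in source leaves. PIP2B had 115, 120.1 and 122 CPM in wild type, 81.3, 71.3 and 70.2 in the triple mutant and 51.1, 58.9 and 57.2 in the quintuple mutant in flowers, without overlap between genotypes. In rosette buds its quintuple mutant values of 42, 80.4 and 68.9 CPM overlapped the wild-type values of 54.0, 64.1 and 46.9. PIP2B fell by 1.16 ± 0.11 on the log2 scale (adjusted p = 0.00057) in flowers, by 1.15 ± 0.19 on the log2 scale (adjusted p = 0.0074) in sink leaves and by 0.89 ± 0.25 on the log2 scale (adjusted p = 0.049) in source leaves. The coding sequence of PIP2B is 94.9% identical to that of its relative RD28 over the aligned part, so reads of the pair could have been split either way. Of 38 aquaporin loci in the tables, a list drawn up after the set was seen, 26 were tested in sink leaves, with 16 lower and 1 higher. In source leaves 25 were tested, with 14 lower and 0 higher. The 3 genes of the set are among the lower calls in both. Of all genes tested 12.9% were lower and 11.9% higher in sink leaves, and 8.85% and 9.19% in source leaves. In flowers 10 of 30 aquaporins were lower, GAMMA-TIP and PIP2B among them, and 4 higher, beside 18.8% and 19.7% of all genes tested. In rosette buds 1 of 28, GAMMA-TIP, was lower and 0 higher, beside 0.568% and 1.7%. The median log2 fold of the aquaporins was -0.98 in sink leaves and -0.95 in source leaves, beside 0.03 and 0.02 over all genes tested. In the triple mutant the rule was met by 8 of the 27 aquaporin loci with at least 2 CPM in flowers, 9 of 24 in rosette buds, and 7 of 22 in sink and 9 of 21 in source leaves. All loci with at least 2 CPM met it at 11.1%, 6.67%, 10.4% and 9% in that order. The 3 genes of the set count in each tissue because the rule chose them, so these counts are a description.

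The dehydration group held 6 genes, 4 of them called lower in at least 1 quintuple mutant tissue and none higher. Its dehydrin genes COR47 and ERD10 lie next to each other on chromosome 1, and their coding sequences are 73.7% identical over the aligned part. ERD10 had 486, 462 and 439 CPM in wild type, 289, 210.1 and 241 in the triple mutant and 184, 255 and 69.3 in the quintuple mutant in flowers. In source leaves it had 185, 178 and 489 CPM in wild type, 115, 135 and 163 in the triple mutant and 84.9, 63.0 and 128 in the quintuple mutant. In both tissues every wild-type library lay above every mutant library, and 1 wild-type source leaf library stood well above the other two. ERD10 fell by 1.5 ± 0.43 on the log2 scale (adjusted p = 0.032) in flowers, by 1.48 ± 0.30 on the log2 scale (adjusted p = 0.014) in sink leaves and by 1.85 ± 0.43 on the log2 scale (adjusted p = 0.032) in source leaves, and the flower call was lost without quintuple library 1 (adjusted p = 0.06).

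COR47 was called in flowers only, where it had 781, 802 and 736 CPM in wild type, 465, 376 and 393 in the triple mutant and 348, 435 and 114 in the quintuple mutant and fell by 1.43 ± 0.45 on the log2 scale (adjusted p = 0.043); without quintuple library 1 its adjusted p was 0.067. In rosette buds COR47 stood at 104, 148 and 80.8 CPM in wild type, 54.4, 56.1 and 67.8 in the triple mutant and 55.5, 176 and 263 in the quintuple mutant, so the quintuple mutant overlapped both other genotypes. The dehydrin gene ERD14 fell in sink leaves by 0.69 ± 0.15 on the log2 scale (adjusted p = 0.016). AT5G25240, annotated as a stress-induced protein, fell by 0.97 ± 0.24 on the log2 scale (adjusted p = 0.025) in sink leaves and by 1.87 ± 0.42 on the log2 scale (adjusted p = 0.029) in source leaves, from 8.60, 16.0 and 9.89 CPM in wild-type source leaves to 3.46, 5.37 and 2.20. The cysteine protease gene RD21A and the chloroplast Clp protease gene ERD1, both named for induction by drying, were called in no tissue with all libraries. Both were higher in rosette buds without quintuple library 1 (log2 folds 0.99, adjusted p = 0.0033, and 1.60, adjusted p = 0.00077). COR47 and ERD14 were then higher there too (0.85, adjusted p = 0.04, and 0.77, adjusted p = 0.018). ERD1 was then also higher in source leaves (0.69, adjusted p = 0.026). RD21A ran at 846, 793 and 875 CPM in wild-type flowers, 679.9, 559 and 518 in the triple mutant and 1407, 1969.6 and 1046 in the quintuple mutant, which lay above wild type in every library.

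Of 29 listed genes of abscisic acid and dehydration, 4 are in the set (COR47, ERD10, ERD14 and HB-7). The triple mutant rule was met by 22 of 29 in rosette buds, 12 of 26 in sink leaves, 9 of 27 in source leaves and 6 of 27 in flowers. All loci with at least 2 CPM met it at 6.67%, 10.4%, 9% and 11.1% in that order. The 4 genes of the set count in each tissue because the rule chose them. In the quintuple mutant the list had 12 higher and 3 lower of 27 tested in flowers, and only lower calls elsewhere: 4 of 29 in rosette buds, and 9 of 28 in sink and 3 of 29 in source leaves. Of all genes tested in the quintuple mutant, 18.8%, 0.568%, 12.9% and 8.85% were lower in that order. The shares higher were 19.7%, 1.7%, 11.9% and 9.19%, so the lower calls in source leaves lay near the background. Its median log2 fold was 0.60 in flowers, -0.05 in rosette buds, and -0.32 in sink and -0.34 in source leaves. Outside the set, NCED3, which makes an abscisic acid precursor, rose in flowers with a log2 fold of 1.73 ± 0.16 (adjusted p = 0.00051). HB12, the homeodomain relative of HB-7, rose there with 1.94 ± 0.17 (adjusted p = 0.00045), and the phosphatase gene HAI1 with 1.05 ± 0.09 (adjusted p = 0.00044). KIN2, a cold-induced gene, fell with a log2 fold of -2.35 ± 0.17 (adjusted p = 0.027) in rosette buds and -1.14 ± 0.21 (adjusted p = 0.01) in sink leaves.

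Among 7 transcription regulators, 3 were called lower and never higher, and 2 higher and never lower. NAP, a NAC factor that promotes leaf senescence, had 62.5, 72.8 and 83.6 CPM in wild type, 44.1, 40.8 and 29.2 in the triple mutant and 232, 338 and 155 in the quintuple mutant in flowers. In sink leaves it had 70.1, 73.8 and 57.1 CPM in wild type, 15.2, 2.98 and 13.6 in the triple mutant and 51.6, 24.6 and 105 in the quintuple mutant. The quintuple mutant thus lay above wild type in every flower library and spanned the wild-type values in sink leaves, while the triple mutant lay below wild type in both. NAP rose in quintuple mutant flowers with a log2 fold of 1.67 ± 0.30 (adjusted p = 0.005). HB-7, a homeodomain-leucine zipper gene induced by abscisic acid, had 68.4, 70.5 and 66.3 CPM in wild type, 44.4, 36.0 and 34.1 in the triple mutant and 118, 152 and 92.2 in the quintuple mutant in flowers and rose there with 0.76 ± 0.20 (adjusted p = 0.022).

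PIF4, a phytochrome-interacting factor that drives growth in warmth and shade, was almost a leaf and bud gene, with 1.96, 3.53 and 2.53 CPM in wild-type flowers. In source leaves it had 23.9, 24.7 and 40.1 CPM in wild type, 8.85, 9.74 and 15.2 in the triple mutant and 10.13, 9.86 and 14.1 in the quintuple mutant. Both mutants lay below wild type there and overlapped each other. PIF4 fell by 1.33 ± 0.17 on the log2 scale (adjusted p = 0.0046) in sink leaves and by 1.61 ± 0.24 on the log2 scale (adjusted p = 0.013) in source leaves. WRKY11, a regulator of defence responses, had 52.4, 57.7 and 60.4 CPM in wild type, 32.3, 14.8 and 28.7 in the triple mutant and 27.9, 26.8 and 37.4 in the quintuple mutant in source leaves. WRKY11 fell by 1.06 ± 0.18 on the log2 scale (adjusted p = 0.0082) in sink leaves and by 1.12 ± 0.16 on the log2 scale (adjusted p = 0.012) in source leaves. BEE3, a brassinosteroid-induced bHLH gene, had 3.48, 3.97 and 2.89 CPM in wild type, 2.23, 0.909 and 2.77 in the triple mutant and 0.661, 0.551 and 0.405 in the quintuple mutant in flowers and fell there by 2.73 ± 0.29 on the log2 scale (adjusted p = 0.00077). MYBC1 and the BTB protein gene BT4 were called in no tissue with all libraries. Without quintuple library 1, BT4 was higher in rosette buds (log2 fold 1.17, adjusted p = 0.001). It was also higher in sink leaves (1.58, adjusted p = 0.0055) and source leaves (1.45, adjusted p = 0.0037). MYBC1 was then higher in flowers (0.76, adjusted p = 0.035).

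NAP was the 1 senescence gene of 11 listed. The triple mutant rule was met by 6 of the 10 with at least 2 CPM in flowers, 3 of 10 in rosette buds, and 8 of 10 in sink and 4 of 10 in source leaves. All loci with at least 2 CPM met it at 11.1%, 6.67%, 10.4% and 9% in that order. NAP counts in each tissue because the rule chose it. In the quintuple mutant none was lower, while 7 of 11 were higher in flowers, 2 of 11 in rosette buds, and 3 of 10 in sink and 4 of 11 in source leaves. Of all genes tested in the quintuple mutant, 19.7%, 1.7%, 11.9% and 9.19% were higher in that order. The shares lower were 18.8%, 0.568%, 12.9% and 8.85%. The median log2 fold of the list was 1.67 in flowers, 0.91 in rosette buds, and 0.48 in sink and 0.57 in source leaves. ORE1, another NAC regulator of senescence, rose with a log2 fold of 2.63 ± 0.32 (adjusted p = 0.0013) in flowers and 1.61 ± 0.44 (adjusted p = 0.034) in sink leaves, and SAG13, a dehydrogenase gene used as a senescence marker, with 1.17 ± 0.26 (adjusted p = 0.012) in flowers and 2.47 ± 0.42 (adjusted p = 0.016) in source leaves.

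Of 6 protein breakdown and ubiquitin genes, 3 were called higher in some quintuple mutant tissue and 1 was called lower. GAMMA-VPE, a vacuolar protease that matures vacuolar proteins and acts in cell death, had 291, 199 and 149.9 CPM in wild type, 67.1, 32.8 and 65.1 in the triple mutant and 832, 432 and 1293 in the quintuple mutant in sink leaves. In source leaves it had 673, 506 and 643 CPM in wild type, 256, 244 and 289.8 in the triple mutant and 679.6, 1883 and 1605 in the quintuple mutant. No quintuple mutant library lay below any wild-type library in either tissue, and no triple mutant library lay above one. GAMMA-VPE rose in sink leaves with 1.60 ± 0.40 (adjusted p = 0.026). In rosette buds it had 311, 1043 and 1775 CPM in the quintuple mutant against 185, 206 and 231 in wild type, which was not called with all libraries. The ubiquitin ligase gene AIRP2, known from abscisic acid responses, had 10.8, 10.5 and 14.7 CPM in wild type, 3.96, 7.58 and 2.30 in the triple mutant and 24.2, 34.9 and 22.0 in the quintuple mutant in flowers and rose there with 1.11 ± 0.23 (adjusted p = 0.0098). The kelch-repeat F-box gene AT1G15670 rose in source leaves with 0.99 ± 0.28 (adjusted p = 0.049), and the aspartyl protease gene AT4G16563 fell in flowers by 1.39 ± 0.43 on the log2 scale (adjusted p = 0.041), a call lost without quintuple library 1 (adjusted p = 0.057).

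Of the 5 enzyme genes, the deepest triple mutant reduction belonged to AT1G34060, annotated as a pyridoxal phosphate-dependent transferase. It had 20.1, 12.9 and 14.1 CPM in wild type, 0.928, 1.20 and 2.18 in the triple mutant and 15.9, 26.7 and 46.4 in the quintuple mutant in source leaves. In sink leaves it had 6.93, 1.47 and 1.01 CPM in wild type, 0.425, 0.103 and 0.289 in the triple mutant and 18.3, 3.74 and 40.6 in the quintuple mutant. The triple mutant ratios were 0.0914 and 0.0869, the lower one resting on 9, 2 and 6 counts in the triple mutant, and 1 wild-type sink leaf library stood well above the other two. No quintuple mutant difference of AT1G34060 was called with all libraries; without quintuple library 1 the log2 fold was 2.62 in rosette buds (adjusted p = 0.001) and 0.97 in source leaves (adjusted p = 0.019). The zinc-binding alcohol dehydrogenase family gene AT5G42250 rose in flowers with 1.07 ± 0.27 (adjusted p = 0.021), and without quintuple library 1 this call was lost (0.83, adjusted p = 0.066). The acid phosphatase family gene AT5G51260 fell by 0.91 ± 0.27 on the log2 scale (adjusted p = 0.035) in flowers, by 0.97 ± 0.21 on the log2 scale (adjusted p = 0.017) in sink leaves and by 1.16 ± 0.18 on the log2 scale (adjusted p = 0.014) in source leaves. GA2OX6, which inactivates gibberellins, and the formate dehydrogenase gene FDH were called in no tissue with all libraries. Both were higher in rosette buds without quintuple library 1 (log2 folds 1.08, adjusted p = 0.041, and 1.19, adjusted p = 0.00064). FDH was then lower in source leaves (-0.57, adjusted p = 0.034). GA2OX6 was near the minimum, with 2.81, 3.48 and 3.98 CPM in wild type, 1.73, 1.67 and 1.67 in the triple mutant and 4.07, 6.39 and 4 in the quintuple mutant in flowers.

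The 4 carrier genes split. AT1G68600, of the aluminium-activated malate transporter family, had 36.7, 32.2 and 28.8 CPM in wild type, 22.8, 12.6 and 20.1 in the triple mutant and 7.47, 5.95 and 11.0 in the quintuple mutant in flowers. It fell by 2.07 ± 0.23 on the log2 scale (adjusted p = 0.00088) in flowers, by 1.20 ± 0.37 on the log2 scale (adjusted p = 0.049) in sink leaves and by 1.23 ± 0.34 on the log2 scale (adjusted p = 0.046) in source leaves, where the call was lost without quintuple library 1 (adjusted p = 0.055). PUT1, a polyamine uptake carrier, had 13.2, 12.9 and 7.19 CPM in wild type, 3.45, 2.16 and 3.23 in the triple mutant and 39.5, 22.7 and 72.0 in the quintuple mutant in sink leaves. The quintuple mutant values of PUT1 all lay above wild type there and in flowers, and PUT1 rose with 1.71 ± 0.37 (adjusted p = 0.011) in flowers and 1.61 ± 0.43 (adjusted p = 0.031) in sink leaves. AT4G38730, annotated as a putative magnesium transporter, fell in flowers by 0.90 ± 0.15 on the log2 scale (adjusted p = 0.0036). TDT, the vacuolar malate carrier, was called in no tissue with all libraries. TDT was higher in rosette buds without quintuple library 1 (log2 fold 1.31, adjusted p = 0.00073). Its wild-type source leaf values were 612, 703 and 560.2 CPM and its triple mutant values 472, 409.7 and 437.

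**Figure D4:**
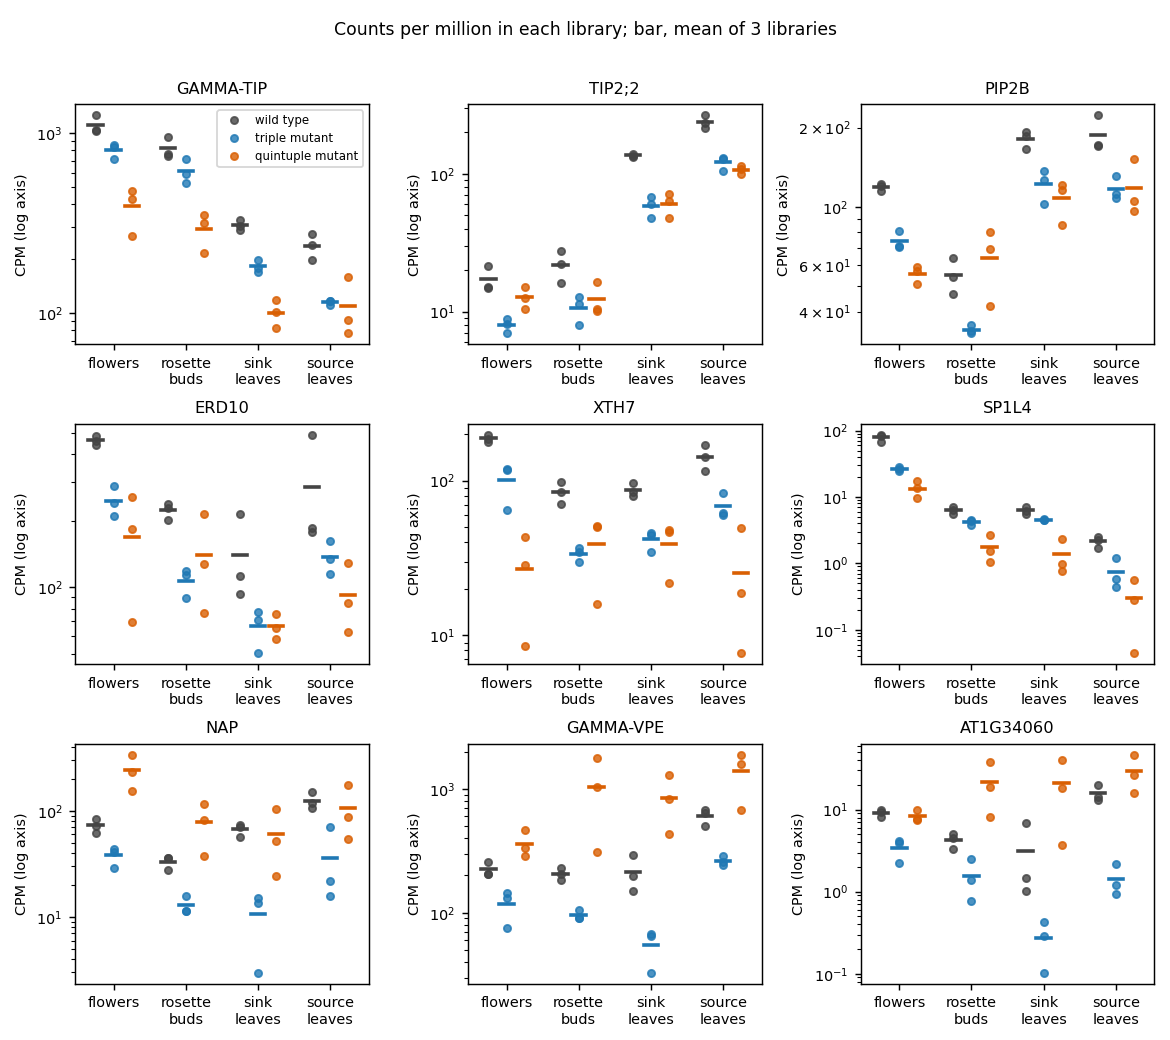
CPM (log axis) of 9 of the genes in each library, by tissue and genotype, 1 point a library and a bar for the mean of 3. In the quintuple mutant GAMMA-TIP and SP1L4 lie below wild type in every tissue, while GAMMA-VPE lies above wild type in every tissue.

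Cell wall and surface genes also split. XTH7, an enzyme that cuts and rejoins xyloglucan, had 197, 186 and 178 CPM in wild type, 117, 65.0 and 118 in the triple mutant and 43.5, 28.6 and 8.51 in the quintuple mutant in flowers. In source leaves it had 116, 168 and 141 CPM in wild type, 83.2, 61.9 and 60.2 in the triple mutant and 49.5, 18.7 and 7.71 in the quintuple mutant. Every mutant library lay below every wild-type library in both, and quintuple library 3 was the lowest in each tissue. XTH7 fell by 2.87 ± 0.52 on the log2 scale (adjusted p = 0.0054) in flowers, by 1.57 ± 0.27 on the log2 scale (adjusted p = 0.0083) in sink leaves and by 2.69 ± 0.64 on the log2 scale (adjusted p = 0.032) in source leaves. AT2G35760, of a membrane protein family related to the Casparian strip proteins, fell by 1.35 ± 0.18 on the log2 scale (adjusted p = 0.0017), 1.40 ± 0.16 on the log2 scale (adjusted p = 0.0038) and 1.84 ± 0.24 on the log2 scale (adjusted p = 0.01) in the same 3 tissues. EXL4, of the EXORDIUM family of cell wall proteins, rose in flowers with 1.34 ± 0.28 (adjusted p = 0.0097) and in sink leaves with 1.73 ± 0.47 (adjusted p = 0.034). The list of 10 exordium and expansin genes had 6 of 9 lower, 1 higher and 2 not called in sink leaves, 4 of 9 lower and 5 not called in source leaves, 3 of 10 lower and 2 higher in flowers, and 1 of 10 lower in rosette buds. Of all genes tested, 12.9%, 8.85%, 18.8% and 0.568% were lower in that order, and 11.9%, 9.19%, 19.7% and 1.7% higher. EXLA2, an expansin-like gene outside the set, fell with a log2 fold of -2.30 ± 0.40 (adjusted p = 0.0084) in sink leaves, while EXL2 rose in flowers with 2.81 ± 0.26 (adjusted p = 0.00051).

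Of 5 signalling and cytoskeletal genes 3 were called lower and 1 higher. SP1L4, of the SPIRAL1 family of microtubule proteins, was a flower gene, with 82.8, 85.4 and 67.9 CPM in wild type, 26.5, 27.8 and 24.8 in the triple mutant and 13.5, 17.1 and 9.63 in the quintuple mutant in flowers. In source leaves it had 1.71, 2.25 and 2.47 CPM in wild type, 1.20, 0.576 and 0.445 in the triple mutant and 0.568, 0.280 and 0.0448 in the quintuple mutant, near the lower limit of the rule. The quintuple mutant lay below the triple mutant in every flower library, and in source leaves the mutants overlapped. SP1L4 fell by 2.62 ± 0.24 on the log2 scale (adjusted p = 0.00046) in flowers, by 2.60 ± 0.42 on the log2 scale (adjusted p = 0.0071) in sink leaves and by 3.04 ± 0.64 on the log2 scale (adjusted p = 0.025) in source leaves. The calcium-binding EF-hand gene AT4G38810 fell by 0.75 ± 0.15 on the log2 scale (adjusted p = 0.0085) in flowers and by 0.63 ± 0.14 on the log2 scale (adjusted p = 0.027) in source leaves, and NHL1 by 0.48 ± 0.15 on the log2 scale (adjusted p = 0.047) in sink leaves. AP4.3A rose in flowers with 1.26 ± 0.20 (adjusted p = 0.0031).

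Metal-binding and zinc finger genes made up 4 of the set. HIPP25, of the heavy metal-associated protein family, had 42.1, 43.9 and 41.5 CPM in wild type, 20.7, 18.7 and 10.6 in the triple mutant and 17.8, 23.0 and 6.74 in the quintuple mutant in flowers and fell there by 1.48 ± 0.40 on the log2 scale (adjusted p = 0.024). In wild-type sink leaves it had only 3.19, 2.94 and 1.71 CPM. The metallothionein gene MT1A had 103, 133 and 213 CPM in wild type, 46.5, 69.9 and 43.6 in the triple mutant and 174, 475 and 713 in the quintuple mutant in rosette buds. MT1A was called in no tissue with all libraries, and was higher in rosette buds without quintuple library 1 (log2 fold 1.88, adjusted p = 0.0023). Its coding sequence is 98.1% identical to MT1B and 94.9% to MT1C over the aligned part, so its counts could hold reads of these relatives. The A20/AN1 zinc finger genes AT2G36320 and AT3G52800, whose family is known from stress responses, were called in no tissue with all libraries. Both were higher in rosette buds without quintuple library 1 (log2 folds 1.67, adjusted p = 0.00024, and 0.53, adjusted p = 0.043).

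The 23 genes without a class, 11 genes of the whole set being uncharacterised by product name, held 5 called lower and 5 higher, and 12 not called. SIS was among those with the widest contrast, with 8.72, 10.4 and 6.29 CPM in wild type, 1.42, 2.06 and 4.81 in the triple mutant and 5.97, 42.6 and 65.4 in the quintuple mutant in source leaves. No quintuple mutant difference of SIS was called with all libraries, and without quintuple library 1 its log2 fold was 2.41 in source leaves (adjusted p = 0.001). AT5G18130 rose in flowers with 0.95 ± 0.22 (adjusted p = 0.015) and in sink leaves with 1.60 ± 0.42 (adjusted p = 0.03), and its relative AT3G03870, with a coding sequence 70.1% identical over the aligned part, rose in flowers with 1.03 ± 0.22 (adjusted p = 0.0096). AT1G10140 rose in flowers with 1.03 ± 0.33 (adjusted p = 0.046) and in source leaves with 1.18 ± 0.33 (adjusted p = 0.048). Its flower call was lost without quintuple library 1 (adjusted p = 0.083). AT3G14280 was the gene called higher in rosette buds, with 2.39, 2.35 and 2.81 CPM in wild type, 1.60, 1.39 and 1.66 in the triple mutant and 8.25, 20.3 and 40.4 in the quintuple mutant there and a log2 fold of 3.07 ± 0.57 (adjusted p = 0.05), a call at the edge of the threshold. The call was lost with DESeq2 size factors, the replicate block and organellar loci left out. It was also lost without any one library other than quintuple library 1. AT3G14595 fell in flowers by 1.23 ± 0.23 on the log2 scale (adjusted p = 0.0057). In all, 16 of the 68 genes overlap another annotated gene, 14 of them on the other strand, GAMMA-VPE, SIS, AT3G14280, AT4G33666 and AP4.3A among them, and the sources used here do not say if strand was used.

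The quintuple mutant difference varied between tissues for 22 of the 68 genes (32.4%) in a test of genotype by tissue over 24 libraries, beside 23.2% of all genes tested. AT4G33666, of unknown function, went both ways, with 9.58, 9.49 and 9.09 CPM in wild type, 7.61, 6.06 and 6.11 in the triple mutant and 12.6, 19.7 and 26.2 in the quintuple mutant in flowers. In sink leaves it had 70.9, 78 and 63.1 CPM in wild type, 38.6, 28.9 and 43.0 in the triple mutant and 17.8, 18 and 30.1 in the quintuple mutant. The quintuple mutant lay above wild type in the first and below wild type in the second, where it overlapped the triple mutant. It rose in flowers with 0.99 ± 0.26 (adjusted p = 0.023), and fell by 2.08 ± 0.25 on the log2 scale (adjusted p = 0.0039) in sink leaves and by 1.97 ± 0.31 on the log2 scale (adjusted p = 0.014) in source leaves. AT3G52360 fell by 0.42 ± 0.11 on the log2 scale (adjusted p = 0.025) in flowers, by 1.48 ± 0.15 on the log2 scale (adjusted p = 0.0038) in sink leaves and by 1.59 ± 0.23 on the log2 scale (adjusted p = 0.013) in source leaves. AT3G20300 fell in flowers alone among its calls, by 2.11 ± 0.30 on the log2 scale (adjusted p = 0.0022), from 105, 112 and 105 CPM in wild type to 27.4, 35.6 and 15.0. The count of 22 genes became 1 without replicate 2 of both genotypes in every tissue and 8 without replicate 3. The shares of all genes in these settings were not computed.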

How the data were processed

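RNA sequencing libraries of 3 genotypes and 4 tissues, 3 per group, were analysed. The authors deposited 1 table of unnormalized counts for 28775 loci per mutant and tissue, each beside that tissue's wild-type libraries, whose 12 columns were equal in both of their tables. The submitters' processing notes name build TAIR10 and, with no role or order, DESeq2, edgeR, R 3.5.1, Salmon 0.7.2 and SAMtools 0.1.18. How whole-number counts were reached and whether strand was used are not given in the sources used here.

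CPM was computed here from column totals for the rule. The quintuple mutant was tested with edgeR 4.0.16 in R 4.3.3 (filterByExpr, TMM, estimateDisp, glmQLFit, glmQLFTest; 6 libraries a tissue), with Benjamini-Hochberg adjustment over all genes and a threshold of 0.05. The SE is the log2 fold divided by the square root of F. Tissue differences were tested in 24 libraries (genotype by tissue) and in the 12 wild-type libraries. The triple mutant contrast chose the genes and was not tested. DESeq2 1.42.0, other scalings, filters and left-out libraries were alternatives. The promoter window was set at 250 bases after motifs had also been counted with 50 bases of the gene. The fits were run on counts simulated at a fixed dispersion, with the fit of a single tissue run for flowers only. These runs do not cover the wide spread between quintuple mutant libraries. Figures used matplotlib 3.10.9.

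The members, lists and function classes were chosen with earlier results of these data known, and the classes and the aquaporin list were written after the genes were seen. Named genes followed a rule: the 12 lowest largest triple mutant ratios, members of the lists and up to 4 other genes of a list, 6 extremes in each direction in the quintuple mutant, 3 on each side of the limit, the 5 smallest tissue p values, and up to 4 per class. Others named, such as AT3G03870, AT1G10140, AT5G51260, MYBC1 and BT4, were chosen after their values were seen.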

Additional observations from a re-analysis of the deposited data

Results flagged for a closer look

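The quintuple mutant difference was called as varying between tissues for 22 of the 68 genes, by edgeR's genotype by tissue test with adjustment over all genes, beside 23.2% of all genes tested. This count fell when a replicate number was left out, as given above. The smallest adjusted p belonged to AT4G33666 (0.000243), which was higher in quintuple mutant flowers and lower in sink and source leaves. AT3G52360 (adjusted p = 0.000612) had log2 folds of -0.42 in flowers, -0.28 in rosette buds, and -1.48 in sink and -1.59 in source leaves. For the defence regulator WRKY11 (adjusted p = 0.0016) the folds were 0.22, 0.08, -1.06 and -1.12 in the same order. AT3G20300 (adjusted p = 0.00212) had -2.11 in flowers and 0.04, 0.18 and 0.15 elsewhere. PIF4 (adjusted p = 0.00285) had 0.46 in flowers, -0.96 in rosette buds, and -1.33 in sink and -1.61 in source leaves. AT4G33666 overlaps a gene on the other strand. Leaf mesophyll markers were lower in the quintuple mutant in leaves and higher in flowers, and their part in these differences was not tested.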

How the results depend on the processing

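Counts below are lower and higher calls among the 68 genes, in flowers, buds, sink and source leaves in that order, and the reported ones were 18 and 12, 1 and 1, 17 and 4, and 15 and 2, with 1 gene lower in all 4 tissues. DESeq2 gave 22 and 16, 8 and 24, 18 and 7, and 20 and 9, with 5 lower in all 4. Its shares of all genes were 17.4% and 18.5%, 7.09% and 11.03%, 13.9% and 13.2%, and 12.4% and 12.6%. DESeq2 size factors gave 18 and 12, 1 and 0, 17 and 4, and 15 and 0. The shares of all genes were 18.9% and 19.7%, 0.539% and 1.34%, 13.2% and 11.4%, and 9% each. Without a filter on low counts the calls were 19 and 13, 3 and 2, 16 and 4, and 15 and 3, with 3 lower in all 4. The shares of all genes were 16.3% and 17.1%, 0.581% and 1.89%, 10.2% and 9.42%, and 7.15% and 7.35%. A fit of all 9 libraries of a tissue gave 21 and 17, 7 and 19, 18 and 6, and 20 and 8, with 3 lower in all 4. The shares of all genes were 21.2% and 25.6%, 6.65% and 12.2%, 16.3% and 16.1%, and 13.7% and 13.9%. Leaving out organellar loci gave 0 higher in buds, beside 1.52% of all genes. The replicate block gave 18 and 11, 1 and 0, 13 and 0, and 0 and 0, with 0 lower in all 4. The shares of all genes were 15.8% and 16.0%, 0.313% and 0.950%, 8.21% and 5.72%, and 0.0582% and 0.0740%. Same-numbered libraries deviated together at correlations of -0.27 to 0.23, and 4 of 12 quintuple mutant libraries correlated best with the wild-type library of their number, so the numbers were not taken as pairs. Leaving out 1 replicate, which leaves 2 in its group, gave 12 to 26 lower and 7 to 22 higher in flowers, 0 to 9 and 0 to 42 in buds, 11 to 23 and 0 to 9 in sink leaves, 0 to 17 and 0 to 13 in source leaves, and 0 to 4 lower in all 4. The shares of all genes moved too, from 11.496% to 25.31% higher in flowers and from 0% to 26.2% in each direction in buds. The rule found 122 genes on TMM-scaled libraries, 65 of them among the 68, 30 at a ratio limit of 0.67 and 112 at 0.8, 101 when same-numbered libraries were compared as a replicate block, 74 and 54 at minima of 1 and 5 CPM, and 75 to 98 without 1 replicate. For genes found on TMM-scaled libraries the calls were 30 and 26, 1 and 2, 21 and 7, and 24 and 4, at the limit of 0.67 they were 9 and 9, 0 and 1, 7 and 4, and 7 and 1, with 0 lower in all 4, and at 0.8 they were 30 and 18, 1 and 1, 25 and 5, and 21 and 4. For genes of the block rule they were 31 and 18, 3 and 1, 22 and 7, and 23 and 3. At a minimum of 5 CPM they were 12 and 9, 1 and 0, 14 and 4, and 12 and 1. Calls for genes found by other forms of the rule come from the reported fits, whose shares of all genes are given above. For genes found without triple mutant replicates 1, 2 and 3 in turn the lower calls were 29, 16 and 26, 1, 0 and 1, 23, 15 and 27, and 25, 14 and 23, the higher calls 17, 21 and 15, 1, 2 and 2, 6, 5 and 5, and 2, 2 and 6, and 1, 0 and 0 were lower in all 4. Without wild-type replicates 1, 2 and 3 the lower calls were 18, 28 and 22, 1, 5 and 1, 20, 25 and 17, and 17, 21 and 14, the higher calls 21, 13 and 17, 1, 2 and 1, 5, 5 and 5, and 3, 2 and 4, and 0, 0 and 1 were lower in all 4. Differences between tissues were called for 22 genes, for 32 by DESeq2, 24 with the block, 19 without the filter, and 1 to 18 without 1 replicate number, while 67 or 68 genes differed between wild-type tissues throughout. The shares of all genes under these alternatives were not computed. Of 91 called folds of named genes 0 reversed and 41 held their call under every alternative. DESeq2 lost 0, its size factors 3, the missing filter 1, the block 35, a quintuple mutant library left out 6 to 28, and a wild-type one 45 to 47. The wider promoter window, an alternative added after seeing the data, gave CACGTG in 8 genes, ACTCAT in 4 and ACGT in 41. The cause of these shifts was not tested. Depth limits genes near the minimum, such as AT1G34060 with 9, 2 and 6 counts in triple mutant sink leaves.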
